A study of Mus musculus with 6 samples.

Results

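10 genes of the endocardial cushions were followed in mouse embryonic hearts with and without the distal regulatory interval of Hand2. They are the zinc-finger repressors Snai1, Snai2, Zeb1 and Zeb2, the HMG-box factor Sox9, the homeobox factors Msx1, Msx2, Prrx1 and Prrx2, and the mesenchymal cadherin Cdh11. The genes were taken by symbol from the table of normalized counts, and all 10 were found among its 15330 rows.

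RNA was sequenced from hearts micro-dissected at embryonic day 9.5. The deletion hearts (H2-URI d/d) lacked, on both alleles, 373 kb of sequence upstream of Hand2, which encodes a bHLH factor needed for heart growth. The interval had been removed with CRISPR-Cas9. They were compared with wild-type (WT) hearts. Each group held 3 libraries, of which replicates 1 and 2 were labelled female and replicate 3 male, and all carried batch number 1. The labels give neither the strain nor whether a library came from a single heart or a pool, so every p-value rests on the spread between libraries, which may be technical.

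In cushion formation, endocardial cells of the atrioventricular canal and outflow tract loosen their junctions, enter the cardiac jelly and become mesenchyme. BMP, TGF-beta and Notch signals start this endocardial-to-mesenchymal transition. Snail and Zeb factors bind E-boxes and repress junction genes such as the endothelial cadherin Cdh5. Sox9 and the Msx and Prrx factors act in the mesenchyme that results, which gives rise to valves and septa. In mouse hearts, Snai1 has been described as a target of Hand2 in the atrioventricular canal. In whole hearts, fewer cushion cells and less RNA per cell cannot be told apart.

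Over all rows of the table, the reads recovered from the normalized counts summed to between 25583210 and 32043595 per library. Libraries were assigned by the column codes, which the sample titles repeat. By contrast, 4 of the 6 files are filed under samples of the opposite group, and values under that filing stand with the alternatives. Hand2 itself stood at 1025, 1158 and 1163 normalized counts in the deletion libraries, against 3911, 3789 and 4407 in the WT libraries. Cardiomyocyte markers, led by Actc1 and Myh7, summed to between 994670 and 1090010 normalized counts in deletion hearts and between 945242 and 1082170 in WT hearts, with 0 of 12 past the test. Endothelial markers, led by Kdr and Cdh5, summed to between 27079 and 28149.9 normalized counts in deletion hearts and between 26018 and 27947 in WT hearts. Of these 12, Kdr, a VEGF receptor, rose, with 5193 ± 299 in deletion hearts and 4133 ± 146 in WT hearts (SD, n = 3 each; adjusted p = 0.0317, limma), and Tek and Icam2 fell.

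Of the 10 genes, 1 fell in the deletion hearts, Msx1, and 0 rose, at an adjusted p under 0.05 in limma over all genes. This is 10% of the genes, where 3.05% of all genes were called and 1.5% were called lower. edgeR and DESeq2 also called 1 of the 10, Msx1, where they called 3.26% and 7.43% of all genes. At an unadjusted p under 0.05 stood 3 of the 10, Msx1, Cdh11 and Snai1, and 21.4% of all genes. The median log2 fold change of the 10 was −0.08, against −0.01 over all genes, with 7 values below 0 and 3 above.

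**Figure D1:**
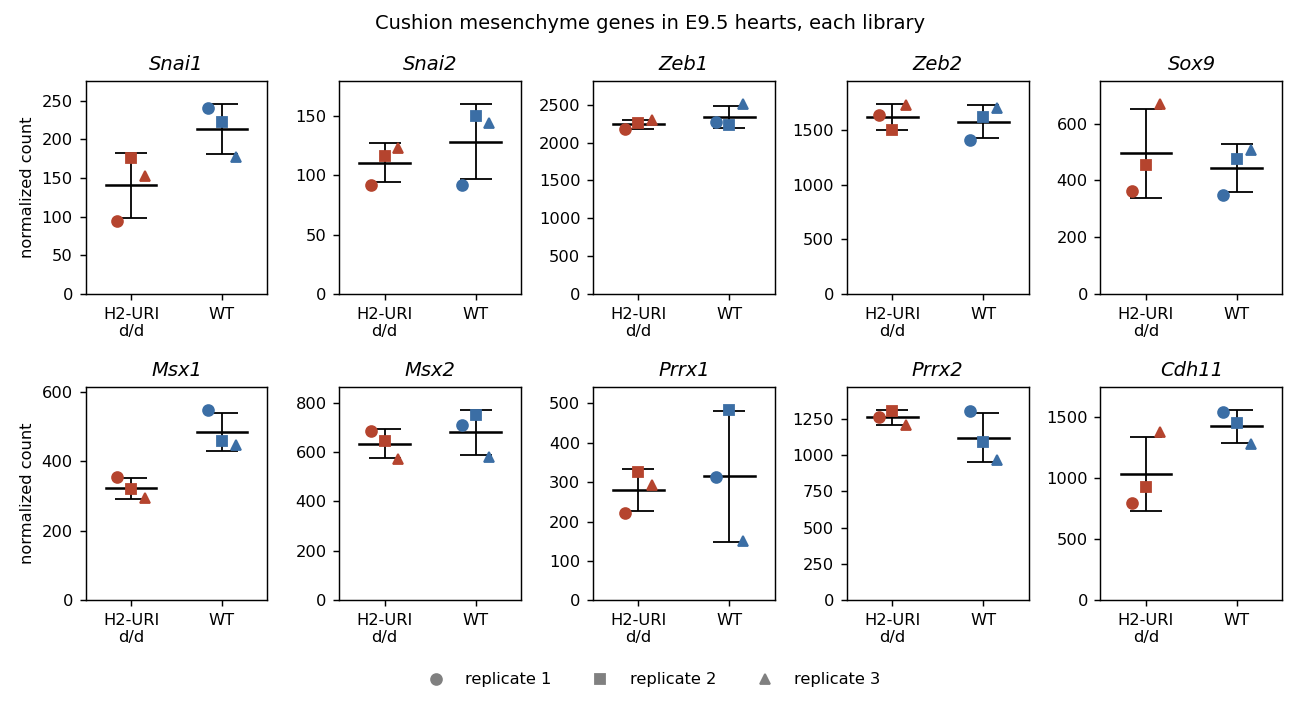
Normalized counts of the 10 genes in each library, with deletion hearts (red) left of WT hearts (blue). Symbols mark the replicate, the long bar is the group mean and the whiskers are 1 SD (n = 3). The groups do not overlap for Msx1 and Snai1, and they overlap for the other 8 genes.

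Promoters of Msx1, of its paralog Msx2 and of Snai1 are shown, since Msx1 and Snai1 were the genes whose groups did not overlap and Msx2 is the close relative of Msx1. They are RefSeq windows on GRCm38.p6, from 250 bases before to 50 after the transcript start, read 5′ to 3′ on the strand of the gene. Capitals mark every CANNTG, the E-box core bound by basic helix-loop-helix factors.
Msx1, chr5:37824536-37824835, minus strand: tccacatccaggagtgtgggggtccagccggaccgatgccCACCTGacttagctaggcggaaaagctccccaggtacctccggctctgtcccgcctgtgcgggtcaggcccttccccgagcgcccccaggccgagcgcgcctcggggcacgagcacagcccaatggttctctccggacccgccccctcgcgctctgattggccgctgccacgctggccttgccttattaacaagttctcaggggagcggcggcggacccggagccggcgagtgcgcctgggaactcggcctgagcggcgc
Msx2, chr13:53472731-53473030, minus strand: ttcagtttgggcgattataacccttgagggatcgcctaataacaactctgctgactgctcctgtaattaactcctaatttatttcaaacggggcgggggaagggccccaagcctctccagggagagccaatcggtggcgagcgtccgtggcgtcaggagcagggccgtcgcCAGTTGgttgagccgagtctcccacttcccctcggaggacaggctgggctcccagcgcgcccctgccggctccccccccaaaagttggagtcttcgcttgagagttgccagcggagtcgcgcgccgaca
Snai1, chr2:167537945-167538244, plus strand: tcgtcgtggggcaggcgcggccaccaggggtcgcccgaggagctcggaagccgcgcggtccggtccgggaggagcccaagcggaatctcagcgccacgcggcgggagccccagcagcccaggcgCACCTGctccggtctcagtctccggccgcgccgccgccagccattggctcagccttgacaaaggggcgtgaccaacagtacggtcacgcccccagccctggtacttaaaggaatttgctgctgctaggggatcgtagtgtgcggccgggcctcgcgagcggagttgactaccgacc

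The windows of Msx1 and Snai1 each held 1 E-box, CACCTG in both, which began 210 bases before the start of Msx1 and 126 before that of Snai1. The window of Msx2 held 1 E-box with the letters CAGTTG, 79 bases before the start. Among 32851 promoters of the same length, 72.3% held a CANNTG, which reads the same on both strands, and 20.2% held CACCTG or its reverse complement CAGGTG. Promoter windows were matched for 6 of the 10 genes, and those of Zeb2, Prrx1 and Prrx2 held no CANNTG. These 6 genes had 9 windows, as Zeb2 had several, some of them overlapping. None of the 9 held the spelling CATCTG or its reverse complement CAGATG, which 17.2% of all promoters held. These spellings are all included in CANNTG, and a match is a run of letters, not a measured site.

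Msx1, a homeobox repressor of atrioventricular and cushion cells, stood at 355, 319 and 294 normalized counts in the deletion libraries, against 548, 458 and 448 in the WT libraries. Every deletion library lay below every WT library. The means were 323 ± 30.6 in deletion hearts and 485 ± 55.3 in WT hearts (SD, n = 3 each), so the deletion mean was 66.6% of the WT mean. In limma, the fitted log2 fold change of −0.58 (SE 0.11) had an adjusted p of 0.0292. Its size lay between −0.65 and −0.49 with each library left out in turn. The call was lost without deletion replicate 1 (adjusted p = 0.0610), deletion replicate 2 (0.126), deletion replicate 3 (0.113) or WT replicate 3 (0.0655). Each of those limma fits has fewer libraries. It was also lost with no intensity trend in limma (adjusted p = 0.0845) and in the 4 libraries labelled female (adjusted p = 0.206).

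Msx2, the paralog that can stand in for Msx1 in mouse heart development, had 686, 645 and 571 normalized counts in the deletion libraries and 711, 751 and 578 in the WT libraries. The groups overlapped, and replicate 3 was the lowest library in each. It differed by a log2 fold change of −0.10, with a 95% interval from −0.35 to 0.16 (adjusted p = 0.672, limma). Within each library the ratio of Msx1 to Msx2 was 0.517, 0.495 and 0.514 in deletion hearts, against 0.772, 0.610 and 0.774 in WT hearts. The log2 ratio was −0.97 ± 0.03 in deletion hearts and −0.48 ± 0.20 in WT hearts (SD, n = 3 each), a difference of −0.49. By exact permutation (two-sided), the ratio had p = 0.1, the smallest that 3 against 3 allows, and 0.4 after adjustment over the 4 paralog pairs.

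**Figure D2:**
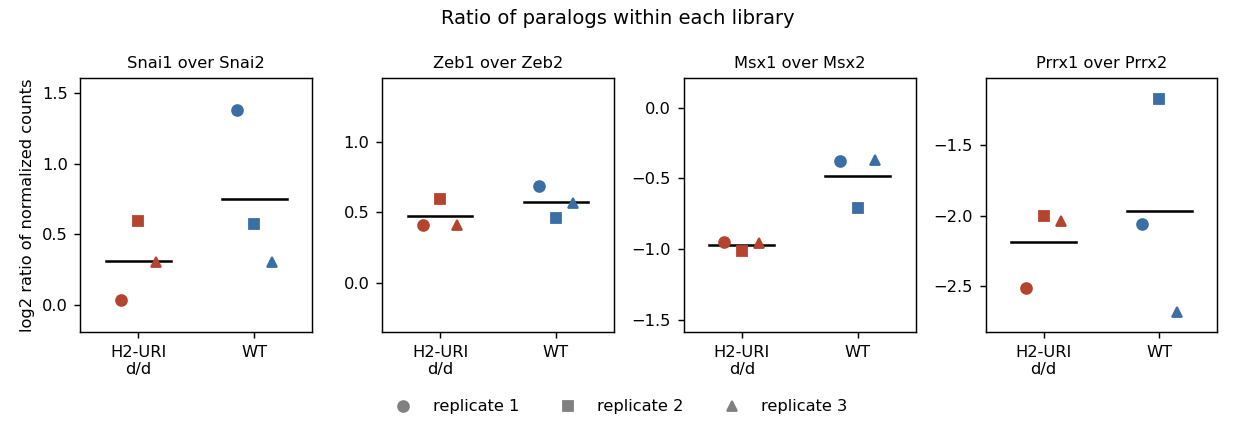
Log2 ratio of the normalized counts of paralogs in each library, deletion hearts (red) left of WT hearts (blue), with the group means as bars and the same span on each vertical axis. Msx1 over Msx2 separates the groups, from −0.95 to −1.01 in deletion hearts and from −0.37 to −0.71 in WT hearts, and the other 3 ratios overlap.

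Snai1, the repressor of Cdh5 at the start of the transition, was measured at 93.9, 175 and 152 normalized counts in the deletion libraries and at 241, 222 and 178 in the WT libraries. The groups did not overlap, but deletion replicate 2 and WT replicate 3 were nearly level. The means were 141 ± 42.0 in deletion hearts and 214 ± 32.5 in WT hearts (SD, n = 3 each). The log2 fold change of −0.64 (SE 0.22) was of the size seen for Msx1, with a 95% interval from −1.14 to −0.13, and it missed the threshold (adjusted p = 0.145, limma). Over the alternatives that kept the groups it lay between −0.84 and −0.37, with adjusted p-values from 0.0884 to 0.332. Without deletion replicate 1, the lowest library, it was −0.37. Of all genes, 14.5% had groups that did not overlap with the deletion lower, and of the 10 genes this held for 2, Msx1 and Snai1. The share was 12.9% with the deletion higher, which held for 0 of the 10, and 27.4% in either direction.

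Snai2, the Snail factor placed under Notch in the cushions, had 91.8, 116 and 123 normalized counts in the deletion libraries, against 91.9, 149 and 144 in the WT libraries. Its groups overlapped, with replicate 1 the lowest library of each. Its log2 fold change was −0.19, with a 95% interval from −0.67 to 0.28 (adjusted p = 0.639, limma). The log2 ratio of Snai1 to Snai2 differed by −0.44 between deletion and WT hearts (exact two-sided permutation p = 0.5), with 0.31 ± 0.28 in deletion hearts and 0.75 ± 0.56 in WT hearts (SD, n = 3 each). This difference was −0.13 without WT replicate 1 and −0.66 without WT replicate 3. These 2 genes rest on few reads, between 89 and 250 for Snai1 and between 81 and 168 for Snai2.

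Zeb1 and Zeb2, zinc-finger and homeodomain repressors of epithelial cadherin in many tissues, differed little between groups. Zeb1 had 2173, 2255 and 2296 normalized counts in the deletion libraries, against 2271, 2232 and 2510.3 in the WT libraries. Zeb2 had 1636, 1497 and 1730.1 in the deletion libraries, against 1409.7, 1622 and 1698 in the WT libraries. Both overlapped between groups. For Zeb1 the log2 fold change was −0.06, with a 95% interval from −0.21 to 0.09 (adjusted p = 0.654, limma). That of Zeb2 was 0.04, with an interval from −0.15 to 0.24 (adjusted p = 0.824, limma). These intervals leave out a fall of the size fitted for Msx1. The log2 ratio of Zeb1 to Zeb2 was 0.47 ± 0.11 in deletion hearts and 0.57 ± 0.11 in WT hearts (SD, n = 3 each; exact two-sided permutation p = 0.3).

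**Figure D3:**
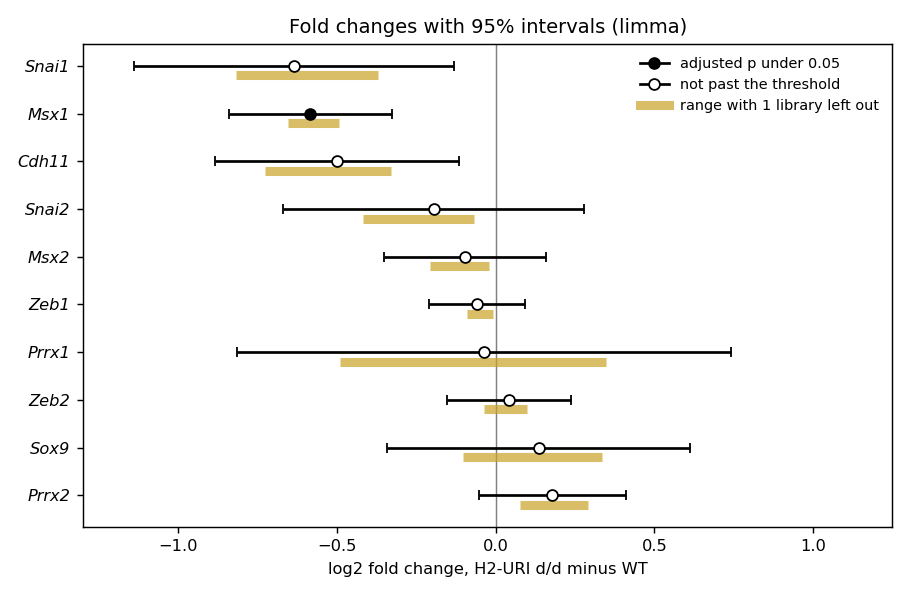
Log2 fold change of each gene, deletion minus WT, with its 95% interval from limma (black) and the range of fitted values with 1 library left out in turn (yellow). Only Msx1 (filled, −0.58) is past the threshold, and the intervals of Snai1 and Cdh11 also lie below 0 before adjustment over all genes.

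Cdh11, the cadherin that mesenchymal cells carry, had 794, 929 and 1376 normalized counts in the deletion libraries, against 1544, 1452 and 1279 in the WT libraries. Deletion replicates 1 and 2 lay below all WT libraries, and deletion replicate 3 lay among them. The means were 1033 ± 305 in deletion hearts and 1425 ± 134 in WT hearts (SD, n = 3 each), with a log2 fold change of −0.50 (SE 0.17, 95% interval from −0.88 to −0.11, adjusted p = 0.136, limma). Without deletion replicate 3 the log2 fold change was −0.73 and passed (adjusted p = 0.0251, limma), and in that fit Cdh11 was the 1 gene of the 10 called, in place of Msx1. Without deletion replicate 1, the lowest library, it was −0.33 (adjusted p = 0.333, limma). In the 4 libraries labelled female the Cdh11 value was −0.80 (adjusted p = 0.0533, limma). Deletion replicate 3 is also the only male library of its group, so sex and library cannot be told apart for the values without it.

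Sox9, which drives the spread of cushion mesenchyme and its cartilage-like matrix, had 364, 456 and 669.6 normalized counts in the deletion libraries, against 347, 475 and 508 in the WT libraries. The highest of the 6 was deletion replicate 3, and the groups overlapped. Its log2 fold change was 0.14, with a 95% interval from −0.34 to 0.61 (adjusted p = 0.757, limma), and it was below 0 without deletion replicate 3 (−0.10) or WT replicate 1 (−0.03).

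Prrx1 and Prrx2, paired-related homeobox factors of limb, head and heart mesenchyme, differed in how evenly they were measured. Prrx1 had 221, 326 and 293 normalized counts in the deletion libraries, against 312, 483 and 150.1 in the WT libraries. The WT libraries thus differed 3.22-fold among themselves and enclosed all deletion libraries. The log2 fold change was −0.04 with a 95% interval from −0.81 to 0.74 (adjusted p = 0.968, limma), too wide to show a change of the size seen for Msx1. Prrx2 had 1266, 1307 and 1205 in the deletion libraries, against 1302, 1092 and 967 in the WT libraries. It overlapped through WT replicate 1, with a log2 fold change of 0.18 (95% interval from −0.05 to 0.41, adjusted p = 0.356, limma). That value was 0.29 without WT replicate 1 and 0.078 without WT replicate 3. The log2 ratio of Prrx1 to Prrx2 was −2.18 ± 0.29 in deletion hearts and −1.97 ± 0.76 in WT hearts (SD, n = 3 each; exact two-sided permutation p = 0.9).

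Levels between genes were compared as normalized counts per kb of the longest GENCODE M21 transcript, in WT hearts. Prrx2 was the highest, at 671 to 903 per kb, then Zeb1 at 385 to 433. Msx2 (236 to 306), Cdh11 (226.6 to 273) and Msx1 (231 to 283) followed and overlapped. Zeb2 lay below them at 155 to 186. Snai1 (109.5 to 148) and Sox9 (84.0 to 123) overlapped, as did the lowest, Snai2 (45.5 to 74.0) and Prrx1 (23.0 to 74.0).

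The 10 genes did not move as a block across the 6 libraries. Of their 45 pairwise correlations of log2 values, 26 were above 0, from Pearson r = 0.81 for Snai1 with Cdh11 to −0.80 for Snai2 with Prrx2 (n = 6 libraries, which share scaling and group). The genes most like Msx1 by Pearson r over the 6 libraries, among 11811 with a mean of at least 100, were Cox19 (r = 0.99), Txlna (0.99), Asb3 (0.99), Ndn (0.99) and Gm10704 (0.99). Among them Ndn, a MAGE-family gene, was called, at −0.35 on the log2 scale (limma, adjusted p = 0.0411), and the other 4 were not called. With so few libraries, 132 genes had an r above 0.95.

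Beyond these 10, 29 other measured transcription factors of the transition, of mesenchyme and of the cushions were examined. Like the 10 genes, this list and those that follow were chosen with earlier results of these data known. Their shares called, set beside that of all genes, are descriptions and were not tested. In this list 3 fell and 2 rose, which is 17.2% called against 3.05% of all genes, with a median log2 fold change of 0.02. Twist1, a basic helix-loop-helix factor of mesenchyme, had 186, 210 and 212 normalized counts in the deletion libraries, against 368, 651 and 372 in the WT libraries (log2 fold change −1.14, adjusted p = 0.0196, limma). All deletion libraries were lower, and WT replicate 2 was the highest library by far. The forkhead factor Foxc1 had 137, 146 and 199.8 in the deletion libraries, against 257, 267 and 295 in the WT libraries (−0.77, adjusted p = 0.0317, limma). Tbx3, a T-box repressor of the atrioventricular canal, was higher, at 1268, 1292 and 1076 in the deletion libraries, against 893, 919.8 and 889 in the WT libraries (0.42, adjusted p = 0.0303, limma). Ets1 was the third that fell and Meox1 the other that rose. The count that fell was 0 without deletion replicate 1 or 2 and 1 without deletion replicate 3 or WT replicate 3. The count that rose was 0 without deletion replicate 1 or 2 or WT replicate 3, and 1 without deletion replicate 3.

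Among 35 measured signals that start or tune the transition, 3 fell and 3 rose, which is 17.1% called against 3.05% of all genes. Their median log2 fold change was 0.00 to 2 decimals. Wnt4, a Wnt ligand of the cushion endocardium, had 67.6, 69.6 and 54.0 normalized counts in the deletion libraries, against 277, 264 and 253 in the WT libraries (log2 fold change −2.04, adjusted p = 1.52e-04, limma). Eng, the endothelial co-receptor of TGF-beta ligands, had 2748, 2664 and 2502 in the deletion libraries, against 3619.7, 3368 and 3636 in the WT libraries (−0.42, adjusted p = 0.0108, limma). Tgfb1 stood at 422, 487 and 508 in the deletion libraries, against 662, 685 and 669.9 in the WT libraries (−0.51, adjusted p = 0.0204, limma). In all 3 genes every deletion library was below every WT library. Smad7, Bmp7 and Bmp6 were the genes that rose. The number that fell was 1 without deletion replicate 2 and 5 without WT replicate 2. The number that rose was 0 without any 1 deletion library or WT replicate 3, and 5 without WT replicate 1.

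Of 29 measured products of mesenchymal cells, 8 fell and 0 rose in limma, which is 27.6% called against 3.05% of all genes. Their median log2 fold change was −0.16, with 20 values below 0 and 9 above. DESeq2 called 10 of them lower and 1 higher, where it called 7.43% of all genes. Col3a1, a fibrillar collagen, had 1443, 1748 and 2061 normalized counts in the deletion libraries, against 3931, 4668 and 3936 in the WT libraries (log2 fold change −1.26, adjusted p = 0.00126, limma). Has2, the hyaluronan synthase of cardiac jelly, had 1811, 1762 and 1711 in the deletion libraries, against 2436, 2865 and 2685 in the WT libraries (−0.59, adjusted p = 0.00383, limma). In both genes every deletion library lay below every WT library. The matrix glycoprotein Tnc averaged 1441 ± 252 in deletion hearts and 3329 ± 733 in WT hearts (SD, n = 3 each; −1.20, adjusted p = 0.0063, limma). Pdgfrb, a PDGF receptor of mesenchyme and mural cells, had 424, 519 and 527 in the deletion libraries, against 973, 858 and 779.7 in the WT libraries (−0.83, adjusted p = 0.0063, limma).

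Vim, the intermediate filament of mesenchymal cells, had 14109.8, 14916 and 14534 normalized counts in the deletion libraries, against 21463, 18556 and 20306 in the WT libraries (−0.47, adjusted p = 0.0141, limma). Postn, periostin of valve mesenchyme, had 109, 117 and 226.8 in the deletion libraries, against 259, 414 and 384 in the WT libraries (−1.27, adjusted p = 0.0412, limma). The fibulin gene Fbln2 averaged 306 ± 94.0 in deletion hearts and 573 ± 101 in WT hearts (SD, n = 3 each; −0.93, adjusted p = 0.0398, limma). For Vim, Postn, Fbln2, Tnc and Pdgfrb the groups did not overlap. Twist1, also on this list, was the eighth. The number that fell was 4 without deletion replicate 1 or 2 and 5 without WT replicate 3, and it was between 6 and 9 without any other single library. It was 2 with no intensity trend and 2 in the libraries labelled female. This list was chosen with earlier results of these data known, and its difference in counts from the 10 genes was not tested.

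**Figure D4:**
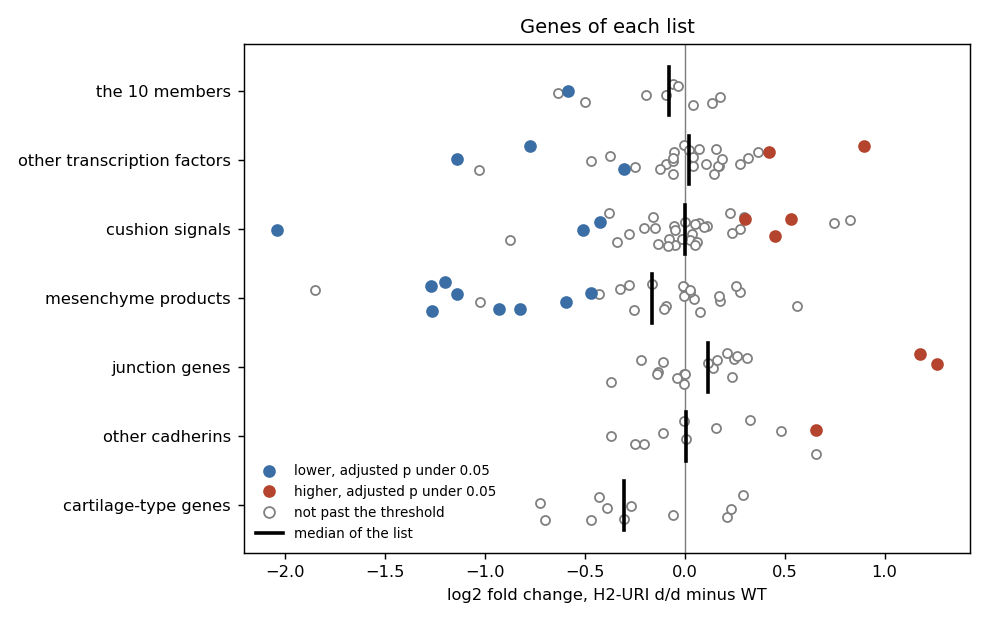
Log2 fold change of every measured gene in each list, deletion minus WT, with called genes filled in blue (lower) or red (higher) and the list median as a black bar. The mesenchyme products hold 8 lower and 0 higher calls, and the 10 genes 1 lower and 0 higher.

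Of 19 junction genes, the kind that Snail and Zeb factors repress, 2 rose and 0 fell, which is 10.5% called. Of all genes, 3.05% were called. The median log2 fold change of the 19 was 0.12, with 9 values below 0 and 10 above. The tight junction gene Cldn5 had 173, 168 and 199 normalized counts in the deletion libraries, against 106, 65.8 and 70.5 in the WT libraries (log2 fold change 1.18, adjusted p = 0.0156, limma). Ocln, occludin, had 195, 202 and 177 in the deletion libraries, against 115, 71.2 and 60.4 in the WT libraries (1.26, adjusted p = 0.0191, limma). In both genes all deletion libraries were higher. Both rest on few reads, between 74 and 184 for Cldn5 and between 66 and 218 for Ocln. The count of junction genes that rose was 0 without any 1 deletion library or WT replicate 3, and 4 without WT replicate 1. Cdh5, the endothelial cadherin, averaged 4250.4 ± 109 in deletion hearts and 4261 ± 259 in WT hearts (SD, n = 3 each), and it did not pass.

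Of 11 other measured cadherins, 1 rose and 0 fell, which is 9.09% called against 3.05% of all genes. Cdh13, which lacks a cytoplasmic tail, had 526, 554 and 541 normalized counts in the deletion libraries, against 367, 297 and 369.7 in the WT libraries (log2 fold change 0.65, adjusted p = 0.0145, limma). Leaving out any 1 deletion library ended the call, with adjusted p-values from 0.0560 to 0.0873 (limma). Of 11 measured genes of cartilage-type matrix and its regulators, where Sox9 acts, 0 passed in limma. An unadjusted p under 0.05 in limma was found for 7 of them and for 21.4% of all genes. By the other tools, edgeR called 0 of the 11, and DESeq2 called 2 lower and 1 higher. Limma called 2 lower with the length and GC trend removed, and 1 lower with quantile normalization, with sex as covariate, or without WT replicate 1 or 3. The median log2 fold change of these 11 was −0.30. Col2a1 averaged 20216 ± 3155 in deletion hearts and 16392 ± 183 in WT hearts (0.29, adjusted p = 0.154, limma; SD, n = 3 each). The Col2a1 value was 0.091 with the length and GC trend removed and 0.18 without deletion replicate 2, and it passed in DESeq2 (0.31, adjusted p = 0.0363). Hapln1, the link protein of hyaluronan matrix, averaged 11078 ± 962 in deletion hearts and 15128 ± 3096 in WT hearts (−0.43, adjusted p = 0.113, limma; SD, n = 3 each). Hapln1 passed without WT replicate 1 (−0.60, adjusted p = 0.00724, limma), with the length and GC trend removed (−0.46, adjusted p = 0.0194, limma) and in DESeq2 (−0.44, adjusted p = 0.0105).

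Markers of other cells were summed in the same libraries. Neural crest cells also express Msx1 and Twist1, and 5 of 10 markers on the neural crest list were measured, with Sox10 and Foxd3 not among the rows. Their summed level was 1006 to 1359.7 normalized counts in deletion hearts and 1628 to 1687 in WT hearts, without overlap, and 0 of the 5 passed. Ednrb, the highest of them, averaged 675 ± 136 in deletion hearts and 1033 ± 216 in WT hearts (SD, n = 3 each). Its groups overlapped, with deletion replicate 3 at 800 and WT replicate 1 at 789. Those of Crabp1, the next highest, also overlapped, with deletion replicate 3 at 316 and WT replicate 3 at 298. Epicardial markers summed to 4985 to 6871 normalized counts in deletion hearts and to 3139.6 to 4855 in WT hearts, also without overlap, with 2 of 11 higher and 0 lower. Markers of head and pharyngeal mesenchyme, where the Prrx genes are also active, overlapped at 587 to 876 in deletion hearts and 425 to 737 in WT hearts. They were lowest in WT replicate 3, the library with the lowest Prrx1. At the other end they were highest in deletion replicate 3 (876), where Prrx1 was 293. Prrx1 was highest in WT replicate 2 (483), where these markers summed to 691. The part of these cells in the values above was not tested. Sums for foregut epithelium, erythroid cells and macrophages overlapped between groups, and 0 of their 11, 12 and 2 measured markers passed.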

How the data were processed

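Per the labels' protocols, each library was prepared from 300 ng RNA with a stranded mRNA kit and read from both ends. Tools named in the submitters' processing notes are DESeq2 1.30.1, STAR 2.7.9a and, from Subread 2.0.1, featureCounts, with GRCm39 (mm39) as build. The annotation, strand setting and gene filter were not given in the sources used here. What the authors deposited, going by file names and values, is a normalized count, a signal per gene equal to reads over a library's size factor. Every value came out as whole reads (tolerance 0.01), and recovered reads of the 10 genes ranged from 81 to 2743 per library.

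Values were tested as log2(normalized count + 1) with limma-trend over all 15330 rows (R 4.3.3 with limma 3.58.1), without a block, with Benjamini-Hochberg adjustment and 0.05 as threshold. A minimum mean of 10 removed no row. The fit was tested on simulated counts. edgeR 4.0.16 (quasi-likelihood, TMM) and DESeq2 1.42.0 were run on the recovered reads. Intervals are 95% limma intervals before adjustment. List genes were named as up to 3 calls by smallest p, or the 2 highest means where none passed; all calls of the mesenchyme products were added after their values were seen. The genes and lists were chosen with earlier results of these data known. Lengths, GC content and promoters come from GRCm38 references, another build than the authors', so positions apply to GRCm38 only.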

Additional observations from a re-analysis of the deposited data

How the results depend on the processing

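With 467 genes called in all, the count was 146 with no intensity trend, 1139 in DESeq2, 35 in the libraries labelled female, and 103 to 1161 with 1 library left out (138, 103 and 165 without deletion replicates 1, 2 and 3, and 616, 1161 and 168 without WT replicates 1, 2 and 3). Of the 10 genes, 1 was called lower. That count was 0 with no intensity trend, 0 in the female libraries and 0 to 1 with 1 library left out, and no gene was called higher in any alternative. Msx1 kept its call in 14 of 21 alternatives. With the replicate block, 206 genes were called and Msx1 stayed called (adjusted p = 0.0429, limma). The labels state no pairing, so the replicate number was not taken as one. Deviations from the group mean had r of −0.03, −0.12 and −0.14 between same-numbered libraries. Between differently numbered libraries r lay between −0.16 and 0.25. With 3 libraries per group, these values cannot decide whether a pairing exists. Same-numbered libraries also share their sex label. With the length and GC trend removed, Zeb2 had a log2 fold change of −0.019, and with equal totals without haemoglobin Prrx1 had 0.010. With 1 library left out, Zeb2 lay between −0.036 and 0.10, Sox9 between −0.10 and 0.34, Snai2 between −0.42 and −0.069, Zeb1 between −0.092 and −0.0068, Msx2 between −0.21 and −0.020, Prrx2 between 0.078 and 0.29, Prrx1 between −0.49 and 0.35, and the log2 ratio differences between −0.66 and −0.13 for Snai1 over Snai2, −0.16 and −0.043 for Zeb1 over Zeb2, and −0.57 and 0.18 for Prrx1 over Prrx2. With no intensity trend, and likewise in the female libraries, 0 of the other transcription factors, junction genes and cadherins were called, and 1 of the cushion signals, lower. DESeq2 called 7 cushion signals lower and 4 higher. With the replicate block, 2 of the other transcription factors were lower and 0 higher, 2 of the cushion signals were lower and 0 higher, and 6 of the mesenchyme products were lower, with Vim (adjusted p = 0.0568) and Fbln2 (0.0505) not called (limma). With the length and GC trend removed, 5 cushion signals were lower and 1 higher, 3 of the other transcription factors were lower and 1 higher, and 11 mesenchyme products were lower. Under the recorded file assignment, 0 genes were called in all and 0 of the 10, and the log2 fold changes changed sign as follows. Among the 10 they were 0.49 for Snai1, 0.048 for Snai2, −0.024 for Zeb2, 0.18 for Msx1, 0.084 for Msx2, 0.67 for Prrx1 and 0.57 for Cdh11. Hand2 had 0.57, Twist1 0.60, Tbx3 −0.24, Foxc1 0.40, Wnt4 0.57, Eng 0.065, Tgfb1 0.25, Col3a1 0.64, Has2 0.16, Tnc 0.64, Pdgfrb 0.45, Vim 0.15, Fbln2 0.66, Postn 0.77, Cldn5 −0.19, Ocln −0.24, Cdh13 −0.29, Col2a1 −0.24 and Hapln1 0.0010. The log2 ratio differences were 0.44 for Snai1 over Snai2, 0.10 for Msx1 over Msx2 and 0.64 for Prrx1 over Prrx2. That assignment mixes libraries of both column codes within each group. Under it, Hand2 would stand at 1025, 1158 and 4407 normalized counts in WT hearts and at 3911, 3789 and 1163 in deletion hearts. For the other changes the cause was not tested. Among the 10, Snai1 and Snai2 had the lowest mean counts, while the largest standard error in limma was that of Prrx1 (0.35). The part of depth in these values was not tested.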
